A study of Mus musculus with 8 samples.

Results

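The replication-dependent histone genes were examined in the total RNA of corneas from the inbred mouse strains BALB/c (BALB/cN in the methods of the study) and C57BL/6N. Members were all protein-coding genes whose symbol begins with Hist1h, Hist2h, Hist3h or Hist4h in a GRCm38 annotation and whose value was not constant over the corneas. This gave 63 genes among 31314 genes that varied, out of 54532 genes listed. The annotation holds 67 such protein-coding genes, and the other 4 (Hist2h2aa1, Hist2h3c1, Hist1h2ba and Hist1h2aa) were listed at 0 in every cornea. By class, the members comprised 6 genes for the linker histone H1, 16 for H2A, 17 for H2B, 11 for H3 and 13 for H4. By position, 52 lie in the Hist1 cluster on chromosome 13, 8 in Hist2 on chromosome 3, 2 in Hist3 on chromosome 11, and Hist4h4 lies by itself on chromosome 6.

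The corneas came from untreated male mice, 4 of each strain, with no transgene or targeted allele in either group. The methods of the study give an age of 8 to 10 weeks for the mice used in phenotyping the parental strains, without repeating it for RNA sequencing. It is not stated that each cornea came from a different mouse, so p-values measure the spread between these 8 samples. The study compared the parental strains of an intercross to find genes of the cornea that differ between them. The values are the authors' regularized log (rlog) values, which are normalised for library size, lie on a log2 scale, and are drawn towards a gene's mean where few reads were counted. They hold no read counts, so the depth behind each value is unknown.

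Replication-dependent histone genes supply the proteins that package newly copied DNA, and their mRNAs accumulate in S phase of the cell cycle. Pairs of H2A, H2B, H3 and H4 form the core of the nucleosome, and H1 binds the DNA between nucleosomes. These genes have no introns in their standard form, and their mRNAs end in a conserved stem-loop in place of a poly(A) tail. The stem-loop is bound by SLBP, and the RNA is cut behind it with the help of the U7 snRNP. A total-RNA library, unlike a poly(A)-selected library, can capture such mRNAs. In the cornea, dividing cells lie mainly in the basal layer of the epithelium. The tissue markers were those of cornea, since the rlog value of the corneal keratin Krt12 lay between 19.60 and 19.85 in every sample.

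The stem-loop marks the family by sequence. A 16-base stem-loop (a 6-base stem opening with GG and a 4-base loop opening with TTT) was present in the annotated transcripts of 42 of the 63 genes, in 6 versions. Some genes without a match are shorter here than in the RefSeq annotation, such as Hist1h2bl with 381 against 473 bases and Hist1h4k with 312 against 409. A missing match there does not show that the gene lacks the stem-loop. Within the last 100 bases of a transcript the stem-loop was found in 21 of 63 members (33.3%) and in 2 of 21888 other protein-coding genes (0.00914%). These other genes include the 4 histone genes of the family that were listed at 0 in every cornea. The versions followed the class. All 11 H4 genes with a match had a stem opening with GGCCC or GGTCC, and all 31 matches in H1, H2A, H2B and H3 genes had a stem opening with GGCTC. The examples are from the genes whose levels are described next, as DNA, 5′ to 3′, with the stem-loop in capitals and 5 bases on each side.
Hist4h4: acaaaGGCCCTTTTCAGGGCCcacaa
Hist1h4c: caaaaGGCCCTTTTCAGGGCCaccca
Hist2h4: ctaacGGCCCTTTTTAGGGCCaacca
Hist1h1e: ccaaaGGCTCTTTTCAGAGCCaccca
Hist1h3b: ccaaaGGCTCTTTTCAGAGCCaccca
Hist1h2bb: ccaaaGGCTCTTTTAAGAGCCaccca
In Hist1h3b and Hist1h2bb the stem-loop lies 51 and 23 bases before the end of the annotated transcript. The annotated transcripts of Hist4h4, Hist2h4, Hist1h1e and Hist1h4c run on for 2445, 1257, 1153 and 454 bases behind it. By this annotation, reads behind the stem-loop belong to these genes too, and the rlog values do not tell the 2 parts of a transcript apart.

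Most members were well represented. Of the 63 genes, 61 had a mean of 0 or more and were tested, and Hist1h2ap and Hist1h2bq, with means of -0.44 and -1.06, were not. The mean rlog value of the tested members ranged from 0.73 (Hist1h1t, the testis H1) to 12.36 (Hist1h4d), with a median of 8.65 against 6.76 over all 25402 genes tested. Levels between genes were compared per length, as the mean rlog value minus log2 of the exonic length in kb. On this scale Hist1h2ak was highest with 12.38, followed by the H4 genes Hist1h4d with 12.17, Hist1h4b with 12.01 and Hist1h4h with 11.69. The highest H2B gene was Hist1h2bb with 11.40, the highest H1 gene Hist1h1e with 11.21, and the highest H3 gene Hist2h3b with 10.85. The medians per length were 10.59 for H4, 9.85 for H3, 9.49 for H1, 8.66 for H2B and 8.17 for H2A, while the genes of each class spanned at least 6 log2 units. These values and their order depend on the annotated lengths, which were 393 bases for Hist1h2ak, 1138 for Hist1h4d and 1930 for Hist1h1e. The RefSeq annotation gives 536, 402 and 782 bases for these genes, and a ranking by RefSeq lengths was not made.

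The strains were compared to ask which histone genes differ in level between them. With a threshold of 0.01 on the adjusted p (limma, Benjamini-Hochberg adjustment over all genes tested), 8 of the 61 members differed, which is 13.1% against 5.74% of all genes tested. Higher in BALB/c were 5 members (Hist4h4, Hist1h2ah, Hist1h4c, Hist1h3b and Hist1h4i), in a direction in which 2.83% of all genes passed. Lower in BALB/c were 3 members (Hist1h1a, Hist2h4 and Hist1h1e), in a direction in which 2.91% of all genes passed. The values of the strains did not overlap in 14 of the 61 members (23.0%), against 18.3% of all genes tested. An unadjusted p-value from limma under 0.05 was found for 22 members (36.1%), against 23.7% of all genes tested. The median difference over the 61 members, BALB/c minus C57BL/6N, was -0.13 on the log2 scale, against 0.0077 over all genes tested. A difference below 0 was found for 44 of the 61 members and for 11996 of the 25402 genes tested. With the values centred on the median of each cornea, the median over the members was -0.20 and that over all genes -0.066. For 52 of the 61 members the difference was under 0.5 in size. When the p-values from limma were recalibrated to an empirical null, no gene and no member passed the threshold. A recalibrated p under 0.05 before adjustment was found for 8 of the 61 members and for 1478 of the 25402 genes tested. The study recalibrated the p-values of its own test on read counts by another method, and did report genes past 0.01. The recalibration used here is therefore no measure of the calls of the study.

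**Figure D1:**
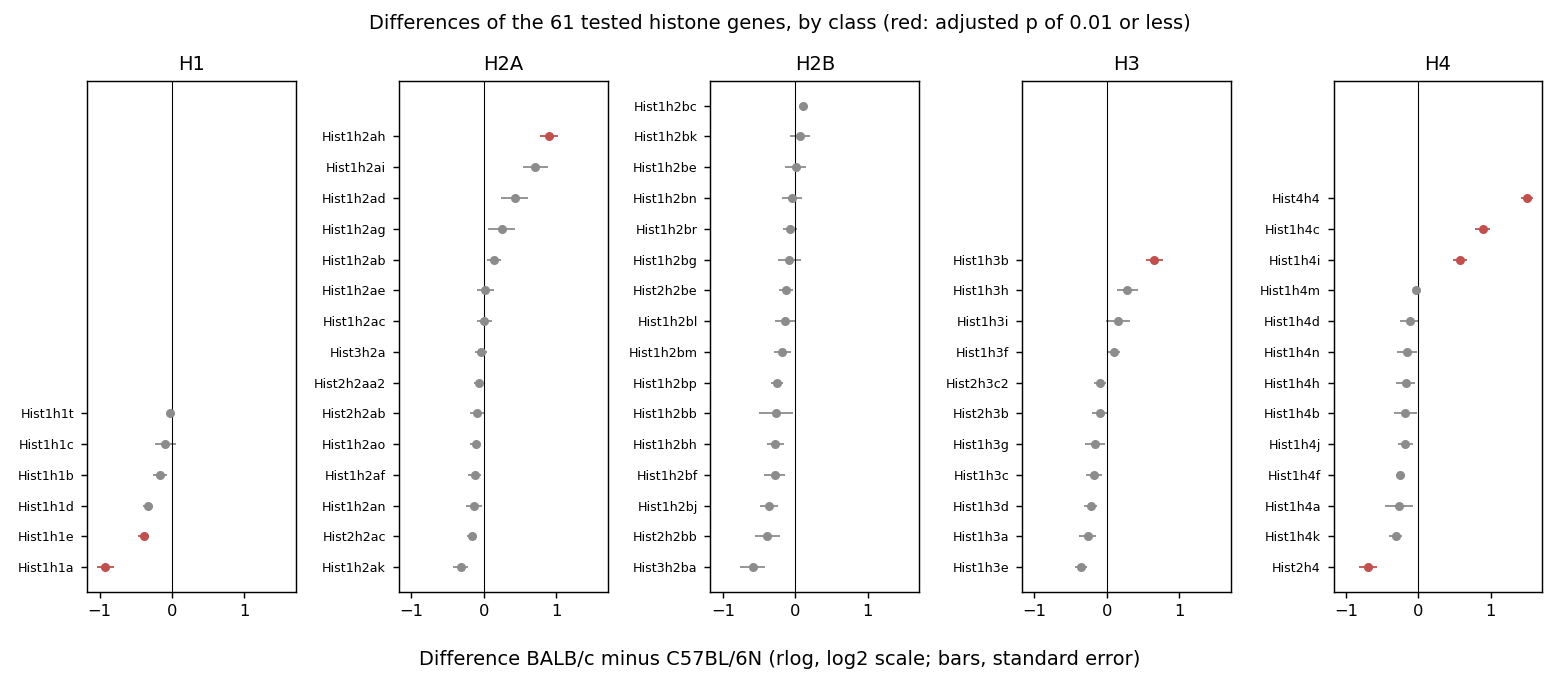
Difference BALB/c minus C57BL/6N of each of the 61 tested histone genes on the rlog (log2) scale, in a panel for each class, with standard errors as bars and genes past the threshold in red. All 6 H1 genes lie below 0, and the H4 panel spans from -0.70 (Hist2h4) to 1.49 (Hist4h4).

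The H4 genes, which encode the same protein, held 4 of the 8 calls, 3 higher and 1 lower in BALB/c. Hist4h4 (chr6:136801553-136804415, GRCm38, minus strand) showed the largest difference of the family. Its rlog values were 10.14, 10.08, 10.20 and 9.95 in the BALB/c corneas and 8.54, 8.56, 8.81 and 8.50 in the C57BL/6N corneas. The lowest BALB/c cornea was above the highest C57BL/6N cornea by more than the range within either strain. The difference was 1.49 ± 0.0859 (standard error, SE, n = 4 and 4 corneas), or 2.82-fold when taken from the log2 scale, with a limma adjusted p = 4.85e-06. The exact two-sided permutation test gave p = 0.0286, the smallest that 4 corneas against 4 allow, and it did so for each of the 8 members called. Fits that each left out 1 cornea gave 1.46 to 1.56.

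Hist1h4c (chr13:23697635-23698454, minus strand) had rlog values of 11.45, 11.16, 11.41 and 11.31 in BALB/c and 10.62, 10.55, 10.39 and 10.22 in C57BL/6N. All BALB/c corneas were above all C57BL/6N corneas, with a difference of 0.89 ± 0.0984 (SE, limma adjusted p = 0.000366). Hist1h4i (chr13:22040636-22041362, minus strand) had 7.53, 7.37, 7.49 and 7.46 in BALB/c and 6.85, 6.86, 6.72 and 7.12 in C57BL/6N. It was also higher in every BALB/c cornea, with a smaller difference of 0.57 ± 0.0966 (limma adjusted p = 0.00436). The call of Hist1h4i held when BALB/c replicate 2 or C57BL/6N replicate 4 was left out. It was lost without any other cornea, with adjusted p-values from limma between 0.0110 and 0.0186 and the difference between 0.52 and 0.57.

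Hist2h4 (chr3:96261682-96263311, minus strand) went the other way. Its rlog values were 10.43, 10.35, 10.15 and 9.90 in BALB/c and 10.80, 10.97, 11.07 and 10.79 in C57BL/6N. The strains did not overlap, and the difference was -0.70 ± 0.118 (SE, limma adjusted p = 0.00445). The call was lost without BALB/c replicate 3 or C57BL/6N replicate 2, 3 or 4, where the difference was -0.68, -0.68, -0.64 and -0.74 and the adjusted p-value from limma 0.0180, 0.0152, 0.0160 and 0.0105. The other 9 H4 genes, among them Hist1h4d with the highest rlog value of the class, had differences between -0.32 and -0.04, and none passed the threshold. Hist1h4d had 12.40, 12.18, 12.38 and 12.23 in BALB/c and 12.77, 12.53, 12.20 and 12.17 in C57BL/6N, so that the strains overlapped (-0.12 ± 0.129, limma adjusted p = 0.617). Hist1h4k and Hist1h4f did not overlap between the strains, with -0.32 and -0.25, and were not called (limma adjusted p = 0.0597 and 0.0331).

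**Figure D2:**
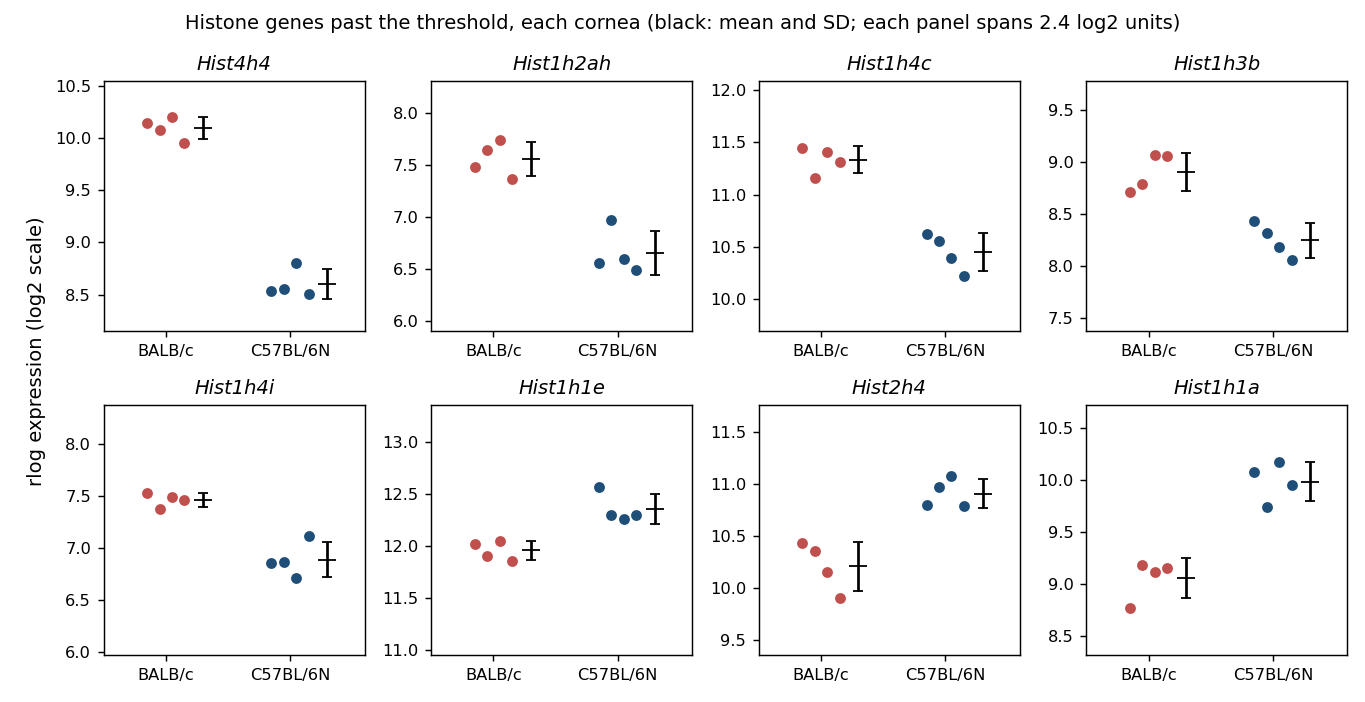
rlog value (log2 scale) of the 8 histone genes past the threshold in each of the 8 corneas, with BALB/c in red, C57BL/6N in blue, and the mean and SD of each strain in black. Each panel spans 2.4 log2 units, and the strains do not overlap in any of the 8 genes.

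Because H4 mRNAs of different genes give the same protein, the rlog values of a class were also taken back from the log2 scale and summed over its tested genes, as a description on a scale that mixes gene lengths. The H4 sum was 16514, 15527, 17057 and 15689 in BALB/c and 18427, 18086, 15762 and 13912 in C57BL/6N. The strains overlapped, and the ratio of the mean sums was 0.979. Hist1h4d contributed 32.4% of this sum. The H1 sum was 8995, 8777, 9538 and 8328 in BALB/c and 12696, 10032, 10711 and 11613 in C57BL/6N. Here every BALB/c cornea was below every C57BL/6N cornea, with a ratio of 0.791, and Hist1h1e contributed 45.8%. The sums of H2A, H2B and H3 overlapped between the strains, with ratios of 0.964, 0.935 and 0.957. No test was made of these sums.

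**Figure D3:**
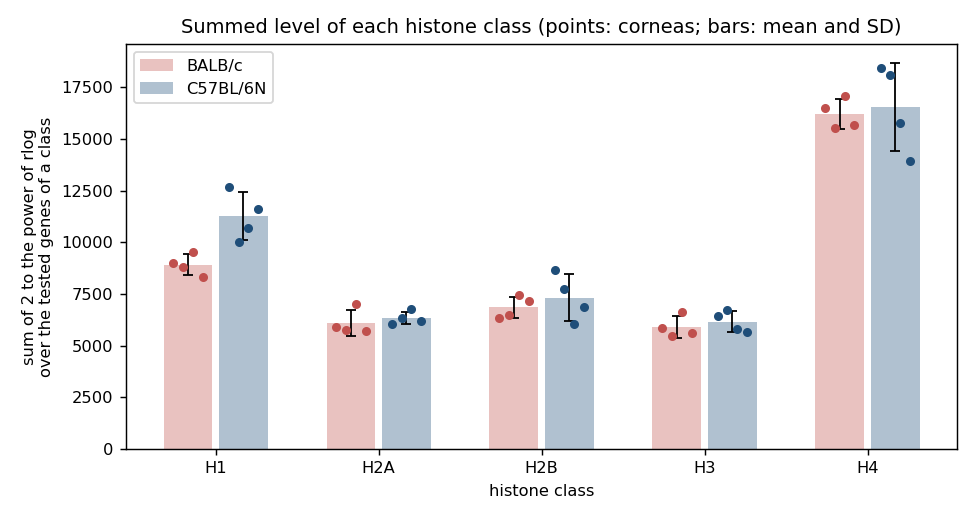
Sum of 2 to the power of the rlog value over the tested genes of each histone class, by cornea (points), with the mean as a bar and the SD as an error bar, BALB/c in red and C57BL/6N in blue. The strains are separate for H1, with sums from 8328 to 9538 in BALB/c and from 10032 to 12696 in C57BL/6N, and overlap for the other classes.

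H1 was the class in which all tested genes, 6 of 6, had lower means in BALB/c. They did so too with median centring, with quantile normalization and with the keratocyte covariate described later. Among the gene clusters, all 8 tested Hist2 genes were lower in the same fits. Of the H1 genes, Hist1h1t had a mean rlog value of only 0.73, and its difference lay between -0.05 and 0.0028 with each cornea left out. Hist1h1a (chr13:23763666-23764406, plus strand), which encodes H1.1, had rlog values of 8.77, 9.19, 9.12 and 9.15 in BALB/c and 10.07, 9.74, 10.17 and 9.95 in C57BL/6N. The strains were apart by more than 0.5 log2 units, and the difference was -0.93 ± 0.117 (SE, limma adjusted p = 0.000811). In the fits that each left out 1 cornea it lay between -1.01 and -0.83, and the call held. Hist1h1e (chr13:23620629-23622558, minus strand), which encodes H1.4, had 12.02, 11.91, 12.05 and 11.86 in BALB/c and 12.56, 12.30, 12.25 and 12.30 in C57BL/6N. Its difference of -0.39 ± 0.0776 lay just past the threshold (limma adjusted p = 0.00993). The call was lost when any cornea was left out, with adjusted p-values from limma between 0.0124 and 0.0350.

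Of the remaining H1 genes, Hist1h1d differed by -0.33 with no overlap of the strains (limma adjusted p = 0.0129). Hist1h1b, Hist1h1c and Hist1h1t had -0.17, -0.09 and -0.03. Hist1h1c ranged from 11.26 to 11.50 in BALB/c and from 11.09 to 11.82 in C57BL/6N, so its strains overlapped. An exon of the H2B gene Hist1h2be on the same strand covers 25.7% of the exon bases of Hist1h1e, and reads from there are ambiguous between the 2 genes. Hist1h1a shares no such stretch with another gene.

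The H2A and H2B genes mostly showed small differences. For H2A, 7 of 15 tested genes had higher and 8 lower means in BALB/c, and only Hist1h2ah passed the threshold. Hist1h2ah (chr13:22035164-22035568, minus strand) had 7.48, 7.64, 7.74 and 7.37 in BALB/c and 6.56, 6.97, 6.60 and 6.49 in C57BL/6N. The lowest BALB/c cornea lay 0.40 above the highest C57BL/6N cornea, and the difference was 0.90 ± 0.126 (SE, limma adjusted p = 0.00148). Hist1h2ai had 9.17, 8.81, 9.31 and 8.74 in BALB/c and 7.97, 8.39, 8.68 and 8.11 in C57BL/6N. Its strains did not overlap, but the difference of 0.72 ± 0.176 was not called (limma adjusted p = 0.0291). Hist1h2ak, the H2A gene with the highest level, had -0.32 ± 0.0978, and Hist1h2af -0.13 ± 0.0943 (limma adjusted p = 0.0708 and 0.465).

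For H2B, 13 of 16 tested genes had lower means in BALB/c and 3 higher, and none passed the threshold in limma, while 4 (25.0%) had an unadjusted p-value under 0.05, against 23.7% of all genes tested. Hist3h2ba had the lowest difference of the class, -0.59 ± 0.171 (limma adjusted p = 0.0583). Its rlog values were 4.78, 5.18, 5.02 and 4.96 in BALB/c and 6.07, 5.39, 5.25 and 5.59 in C57BL/6N, without overlap. Hist2h2bb followed with -0.39 ± 0.175, with overlapping strains. Hist1h2bc, which has the highest rlog value of the class, differed by 0.10 ± 0.0539. Hist1h2bb was the member with the largest standard error, -0.27 ± 0.234, with values from 9.83 to 10.61 in BALB/c and from 9.93 to 11.02 in C57BL/6N.

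Of the 11 H3 genes, Hist1h3b (chr13:23752267-23752886, plus strand) was called. It had rlog values of 8.71, 8.79, 9.07 and 9.05 in BALB/c and 8.43, 8.32, 8.18 and 8.05 in C57BL/6N, and all BALB/c corneas were higher. The difference was 0.66 ± 0.113 (SE, limma adjusted p = 0.00481). The call was lost without BALB/c replicate 3 or 4 or C57BL/6N replicate 2, 3 or 4, with adjusted p-values from limma between 0.0115 and 0.0185 and the difference between 0.59 and 0.68. Hist1h3e, with the highest rlog value of the class, was lower in every BALB/c cornea by 0.36 in the mean (-0.36 ± 0.0808), and was not called (limma adjusted p = 0.0203). Hist2h3b overlapped between the strains (-0.10 ± 0.109).

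**Figure D4:**
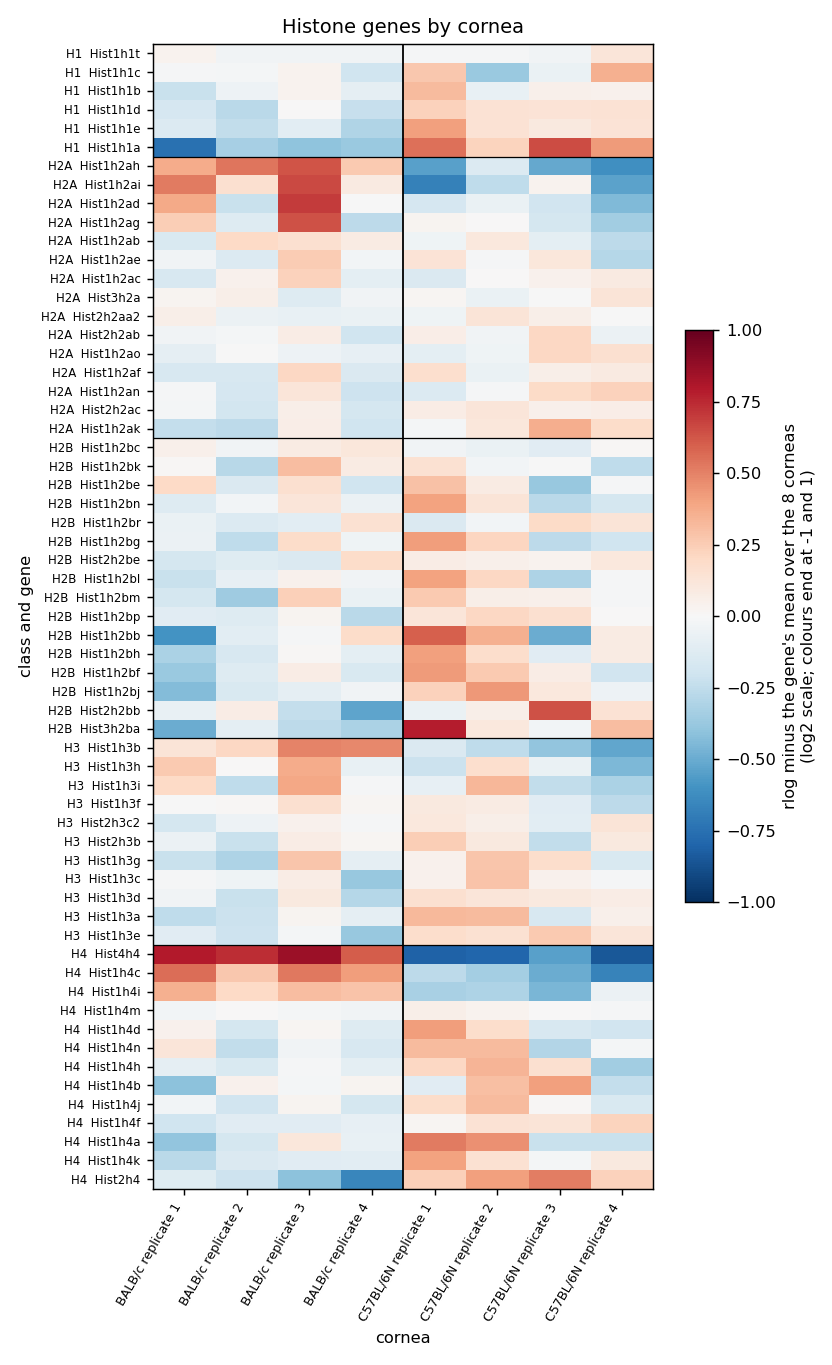
rlog value of each tested histone gene in each cornea minus the mean of the gene over the 8 corneas (log2 scale, red above and blue below the mean), with genes sorted within class by their difference between the strains. Hist4h4, Hist1h4c and Hist1h4i are red in all 4 BALB/c corneas, and Hist1h1a and Hist2h4 are blue in them.

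Averaged over the family, the strains did not separate. The mean rlog value over the 61 members was 8.13, 8.11, 8.30 and 8.12 in BALB/c and 8.29, 8.27, 8.17 and 8.13 in C57BL/6N. The means of the strains differed by -0.05, less than the SD of 0.0896 in BALB/c and 0.0795 in C57BL/6N. In C57BL/6N, replicates 1 and 2 were higher than replicates 3 and 4 for the H2B mean (7.86 and 7.72 against 7.54 and 7.58), the H3 mean (8.69 and 8.77 against 8.56 and 8.51) and the H4 mean (9.28 and 9.31 against 9.15 and 9.05). This did not hold for the H1 mean (9.12 and 8.83 against 8.97 and 9.03) or the H2A mean (7.27 and 7.35 against 7.39 and 7.26). The mean of 9 markers of stromal keratocytes, the fibroblasts of the corneal stroma, was 13.94 and 14.01 in those first replicates and 11.23 and 11.22 in the others. In BALB/c it was 13.89, 11.80, 13.30 and 13.98, while the H2B mean was 7.40, 7.45, 7.61 and 7.52. Its part in the histone values was not tested. With this mean as a covariate 5 members were called higher and 4 lower, in a fit that also called more of all genes (closing section). In bulk RNA, fewer cells of a type and less RNA per cell cannot be told apart. The mean of 7 markers of corneal epithelium lay between 16.53 and 16.78 in all corneas.

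The markers of other tissues also varied between corneas. The mean of 8 lens markers was 7.61, 5.12, 4.91 and 6.83 in BALB/c and lay between 4.79 and 5.43 in C57BL/6N. That of 5 pigment cell markers was 10.42, 6.55, 6.22 and 11.34 in BALB/c and lay between 7.11 and 8.66 in C57BL/6N. BALB/c replicates 1 and 4 were thus above all other corneas for both lists. All 8 lens and all 5 pigment cell markers had higher means in BALB/c, with median differences of 0.89 and 0.75. None of the genes in the marker lists of epithelium, keratocytes, lens, pigment cells, macrophages, red blood cells, skeletal muscle and photoreceptors was called by limma. At an unadjusted p-value under 0.05 there was 1 gene each in the lens, macrophage and photoreceptor lists and 0 in the others. The part of these tissues in the histone values was not tested.

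Histone genes with facing 5′ ends share the DNA between them, and their differences were compared side by side. There were 12 such pairs with at most 1000 bases between them, 11 of an H2A and an H2B gene and 1 of Hist1h2bh and Hist1h3f, and both genes were tested in 10. The gap between the annotated genes was 175 to 659 bases. In the pair with 301 bases between its genes, Hist1h2ah differed by 0.90 and Hist1h2bk by 0.06 (± 0.134, limma adjusted p = 0.820). The rlog value of Hist1h2ah minus that of Hist1h2bk was -0.03, 0.42, -0.07 and -0.21 in BALB/c and -1.09, -0.50, -0.90 and -0.75 in C57BL/6N, without overlap. The exact permutation test gave p = 0.0286, or 0.0953 after Benjamini-Hochberg adjustment over the 10 tested pairs. The strains were apart in 3 of these pairs, the others being Hist1h2bf with Hist1h2ad and Hist1h2bh with Hist1h3f, with the same p-values. They overlapped for Hist1h2bl with Hist1h2ai (exact permutation p = 0.0857). Hist1h2ai differed by 0.72 and its partner Hist1h2bl by -0.15. Hist1h2ad and Hist1h2bf had 0.43 and -0.29. By contrast, Hist2h2ac and Hist2h2be had -0.16 and -0.13, and Hist1h2ac and Hist1h2bc 0.01 and 0.10.

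**Figure D5:**
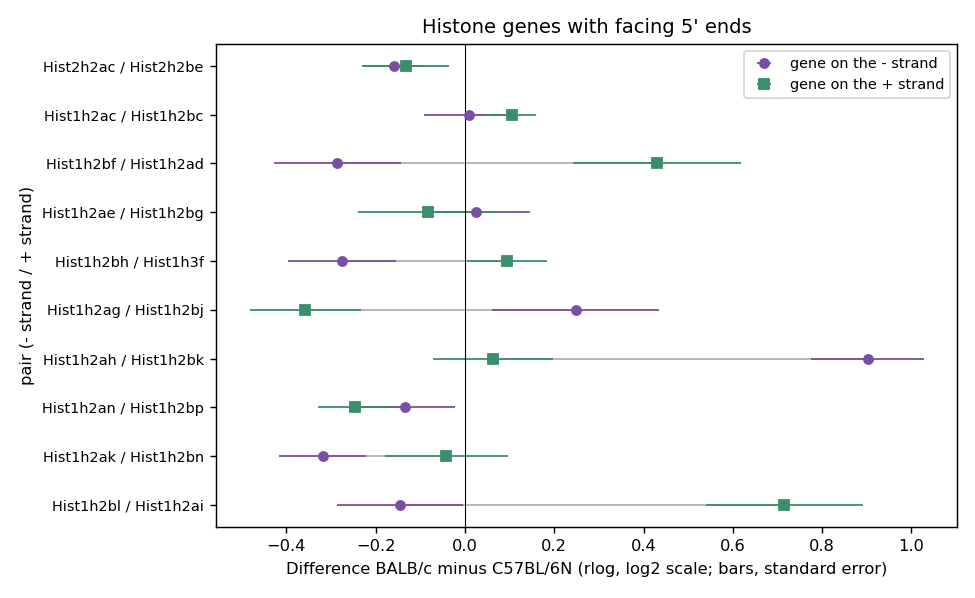
Difference BALB/c minus C57BL/6N (rlog, log2 scale, with standard errors) of both genes in the 10 tested pairs of histone genes with facing 5′ ends, with the gene on the minus strand as a circle and that on the plus strand as a square. Hist1h2ah at 0.90 and Hist1h2bk at 0.06 are the only pair with a called gene.

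Near-identical sequence limits what can be said of single members. For each gene, the share of its 100-base stretches (the read length) that also occur in another gene was taken from the annotated transcripts. The median over the 63 members was 34.3%, from 0 in 6 genes to 100% in Hist2h2aa2. It was 4.5% for Hist4h4, 14.0% for Hist1h4c, 15.1% for Hist1h4i, 24.7% for Hist1h1e, 56.6% for Hist1h3b and 87.9% for Hist1h2ah, and Hist1h1a and Hist2h4 had none. The stretches of Hist1h2ah occur mostly in other H2A genes, 85.3% of them in Hist1h2ad and 76.5% in Hist1h2ai, so its value is uncertain, as is that of Hist1h2ai with 88.4%. Among the 21 members with under 20% of such stretches, 5 were called (23.8%), 3 higher and 2 lower. Among the 40 tested members with 20% or more, 3 were called (7.5%). Over all genes tested the share was 5.74%. The cut of 20% was chosen after the data were seen, and the 2 groups were not tested against each other. The members with 80% or more had a median rlog value of 7.11, against 9.11 for those under 20%. These medians are not per length and so do not compare levels. They are the values of Hist1h2ah and Hist1h2be, which had 8.41 and 6.96 per length. Both genes below the expression filter had over 90% (Hist1h2bq with 94.8% and Hist1h2ap with 92.2%).

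The promoters of the members shared short motifs. Of 58 members matched to RefSeq promoters (GRCm38.p6, 250 bases before to 50 after the start), 49 (84.5%) held CCAAT on either strand, against 37.4% of 32851 promoters of the same length. TATAAA on either strand was found in 32 (55.2%), against 13.6%. The motif CCAAT was present in all 46 matched members of H1, H2A, H2B and H3 and in 3 of the 12 matched H4 genes, and TATAAA in 24 and 8. Hist4h4 and Hist1h4i had no CCAAT, Hist1h4c had 2, and Hist1h1a, Hist1h1e, Hist1h3b and Hist1h2ah held at least 1. The 250 bases before the start are given for the members with the largest difference in either direction and for the called H4 and H2A genes with a difference near 0.90, 5′ to 3′ on the strand of the gene, with both motifs in capitals on either strand.
Hist4h4 (chr6:136804432-136804681, minus strand): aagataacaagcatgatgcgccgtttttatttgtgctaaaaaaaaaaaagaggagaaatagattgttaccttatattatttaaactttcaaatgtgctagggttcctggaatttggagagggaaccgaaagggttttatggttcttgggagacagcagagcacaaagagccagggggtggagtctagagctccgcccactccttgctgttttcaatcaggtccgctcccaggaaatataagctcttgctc
Hist1h4c (chr13:23698459-23698708, minus strand): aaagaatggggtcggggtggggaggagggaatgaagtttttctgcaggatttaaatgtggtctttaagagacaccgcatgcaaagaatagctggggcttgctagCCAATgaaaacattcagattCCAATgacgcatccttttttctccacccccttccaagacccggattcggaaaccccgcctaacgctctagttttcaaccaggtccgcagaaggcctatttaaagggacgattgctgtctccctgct
Hist1h2ah (chr13:22035644-22035893, minus strand): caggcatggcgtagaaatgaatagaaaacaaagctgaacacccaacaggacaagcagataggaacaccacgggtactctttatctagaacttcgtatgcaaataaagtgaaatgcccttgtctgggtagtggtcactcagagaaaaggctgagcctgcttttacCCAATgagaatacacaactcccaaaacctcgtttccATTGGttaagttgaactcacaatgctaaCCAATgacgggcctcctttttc
Hist1h1a (chr13:23763418-23763667, plus strand): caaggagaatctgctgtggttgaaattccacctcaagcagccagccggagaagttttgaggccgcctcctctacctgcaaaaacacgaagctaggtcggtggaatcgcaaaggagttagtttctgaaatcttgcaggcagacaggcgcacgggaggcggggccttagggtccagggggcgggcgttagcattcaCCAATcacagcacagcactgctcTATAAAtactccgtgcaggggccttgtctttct
These are sequences of the reference, which derives from C57BL/6J, and a match to a motif describes letters, not binding.

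The genes that make, process and deposit these histones were compared in the same fit. Of 17 genes for histone mRNA transcription and 3′ end processing, 1 passed the threshold (5.88% against 5.74% of all genes tested). An unadjusted p-value from limma under 0.05 was found for 7 (41.2%), against 23.7% of all genes tested. Mif4gd, whose product binds SLBP and promotes translation of histone mRNA, was lower in BALB/c. Its rlog values were 10.82, 10.81, 10.70 and 10.86 in BALB/c and 11.24, 11.18, 11.22 and 11.31 in C57BL/6N, a difference of -0.44 ± 0.0550 (limma adjusted p = 0.000764), and the call held in all 8 fits that left out a cornea. Slbp, the stem-loop binding protein itself, had 10.07 ± 0.0675 (SD, n = 4) in BALB/c and 9.88 ± 0.0594 (SD, n = 4) in C57BL/6N. Every BALB/c cornea was higher, and the difference of 0.19 ± 0.0590 was not called (limma adjusted p = 0.0715). Cpsf3, the endonuclease that cuts behind the stem-loop, had 0.22, Tut4, a uridylyl transferase of histone mRNA decay, 0.24, and Zfp473, a U7 snRNP partner, -0.36, and none of these was called. The median of the list was -0.0018, from -0.44 to 0.24.

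Among 22 genes of DNA replication and proliferation, 2 were called, both higher in BALB/c (9.09% against 5.74% of all genes tested), and the median difference was 0.18. An unadjusted p-value from limma under 0.05 was found for 13 (59.1%), against 23.7% of all genes tested. The difference was above 0 for 15 of the 22 and below 0 for 7. Cdt1, which loads the MCM helicase, had 8.71, 9.10, 9.12 and 9.04 in BALB/c and 8.48, 8.49, 8.22 and 8.30 in C57BL/6N, a difference of 0.62 ± 0.108 (limma adjusted p = 0.00524). Mcm4, a subunit of that helicase, had 10.66, 10.82, 10.79 and 10.68 in BALB/c and 10.43, 10.40, 10.21 and 10.20 in C57BL/6N, a difference of 0.43 ± 0.0733 (limma adjusted p = 0.00473). Each call was lost in 6 of the 8 fits that leave out a cornea, with adjusted p-values from limma up to 0.0211 for Cdt1 and 0.0197 for Mcm4. The exceptions were the fits without BALB/c replicate 1 or C57BL/6N replicate 2 for Cdt1, and without C57BL/6N replicate 1 or 2 for Mcm4. Pcna, the sliding clamp of DNA polymerase, followed with 0.60 ± 0.123 and was not called (limma adjusted p = 0.0127). Mki67, the marker of proliferating cells, overlapped between the strains, with -0.17 ± 0.0896 (limma adjusted p = 0.301). The cyclins Ccna2 and Ccnb1 had the lowest values of the list, -0.28 and -0.30, and were not called.

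The 13 tested genes listed as replication-independent histones gave no call in limma. Of these, 6 (46.2%) had an unadjusted p-value under 0.05, against 23.7% of all genes tested. Their differences ran from -0.53 (H2afz, a variant H2A) to 0.34 (H1fx, a linker histone), with a median of 0.05. Cenpa, the H3 variant of centromeres, had -0.41 and H1f0, a linker histone of resting cells, 0.32 (limma adjusted p = 0.0164 and 0.0204). None of 15 histone chaperones was called by limma, with 5 (33.3%) at an unadjusted p-value under 0.05, against the same 23.7%, and their median was 0.06. Chaf1b, a subunit of the chromatin assembly factor that acts at replication, had the largest difference of the list, 0.43 ± 0.0890 (limma adjusted p = 0.0126), and Daxx, a chaperone of H3.3, had 0.38. Hira and Supt16 had -0.12 and -0.11. Of the 8 other protein-coding genes that varied and lie between the histone genes of a cluster, 5 were tested and none was called or had an unadjusted p-value under 0.05 in limma. Their differences ran from -0.07 (Prss16) to 0.28 (Hfe), with 0.12 for Zfp184 and -0.02 for Zfp322a.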

How the data were processed

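Total RNA of 4 BALB/c and 4 C57BL/6N corneas had been sequenced from strand-specific libraries. The authors trimmed reads, filtered out rRNA and tRNA, mapped the rest with TopHat2 2.1.1 to a GRCm38-based pseudo-genome of each strain, counted reads on the exons of Ensembl release 94 genes with HTSeq 0.7.1, and deposited log2-scale rlog values, normalized for library size, from DESeq2 1.30. How reads that fit several genes were treated is not given in the sources used here, and it can affect near-identical histone genes. Here limma 3.58.1 under R 4.3.3 (lmFit, eBayes with a variance trend) was fitted to the deposited values over genes with a mean of at least 0, with Benjamini-Hochberg adjustment and a threshold of 0.01. For named genes and for the values within pairs, scipy 1.17.1 gave the exact permutation test, two-sided. Gene types, positions and transcripts came from GENCODE M21 (GRCm38). No column was left unused. Members and lists were chosen with earlier results of these data known. Named members are all called, the 2 with the highest rlog value per class and the 5 largest differences in each direction, and in other lists all called, up to 4 extremes, Slbp and Mki67. Other genes named were chosen after their values were seen. The fit was tested on simulated data with 25402 genes, where 90 of 100 changes of 1 log2 unit and 93 of 100 of 2 were recovered. Recovery of changes under 1 log2 unit was not tested, and 52 of the 61 tested members differed by under 0.5. Alternatives tried are given in the closing section. Tables and plots used pandas 2.3.3, numpy 2.4.6, matplotlib 3.10.9 and Python 3.11.15.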

Additional observations from a re-analysis of the deposited data

Results flagged for a closer look

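Within the 4 corneas of a strain, the gap of the highest or lowest cornea to its nearest neighbour was compared with the range of the strain. Of 94 such sets of values (named genes and class means), 5 had a cornea farther out than Dixon's critical value at 95%, about as many as the 4.7 that chance gives at 1 in 20. Hist1h1a was low in BALB/c replicate 1 (gap over range 0.833), and Hist1h1e was high in C57BL/6N replicate 1 (0.862). Hist1h2af was high in BALB/c replicate 3 (0.949), as was the mean over all 61 tested members (0.876). H2afz was high in BALB/c replicate 2 (0.888).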

How the results depend on the processing

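The rlog scale limits all differences: depth is unknown and weakly expressed genes are shrunken. The counts of members called in BALB/c, 5 higher and 3 lower, became 0 and 0 when the p-values from limma were recalibrated to an empirical null with a standard deviation of 1.75. No gene of the 25402 then passed, 1478 genes and 8 members had a recalibrated p under 0.05 unadjusted, and the calls of the other lists went to 0. With the replicate number as a block, 554 genes were called, with 3 members higher and 0 lower, and the calls in the 3′ end processing and replication lists went to 0. Pairing is not given by the labels beyond the number: same-numbered corneas had correlated deviations of 0.305, -0.53, -0.203 and -0.454, and only replicate 1 correlated best with its own number. With each cornea left out in turn, 951 to 1162 genes were called, 3 to 5 members higher and 1 to 2 lower, 0 to 3 genes of the replication list and 0 to 1 of the replication-independent histones. The lower members were fewer in all of these fits. Median centring gave 958 genes and 0 calls in the replication list. The keratocyte covariate gave 2387 genes, with 5 members higher and 4 lower. In this fit 3 replication-independent histones, 2 processing genes, 2 chaperones and 5 replication genes were called. At an adjusted p of 0.05, 2842 genes were called, and 3, 2, 2 and 6 genes of these lists. Hist1h2ai then joined the members called higher (limma adjusted p = 0.0291), and 6 members were called lower. Quantile normalization gave 2 replication-independent histones, and a fit without a variance trend 1 chaperone. Among members with under 20% shared stretches, chosen after seeing the data like the settings for the lists, 3 were called higher. Over the 17 alternatives that kept the threshold of 0.01, Hist4h4, Hist1h4c and Hist1h2ah were called in 16 and Hist1h1a in 15. Hist2h4 was called in 11, Hist1h3b in 10, Hist1h4i in 7 and Hist1h1e in 3. Of 323 values of named members in these alternatives, 280 kept their direction and side of the threshold, 42 lost the call and 1 changed sign. That was Hist1h1c, which lay between -0.2334 and 0.0090 with each cornea left out and was above 0 without C57BL/6N replicate 4. Zfp322a lay between -0.1213 and 0.0388 and was above 0 without BALB/c replicate 3, C57BL/6N replicate 2 and C57BL/6N replicate 4. The causes were not tested.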

Other observations

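Of the 3 annotated pseudogenes with a histone symbol, 2 passed the threshold. Hist1h2al (chr13:51202727-51203065, GRCm38, minus strand), outside the Hist1 cluster, had rlog values of 8.19, 8.04, 8.13 and 7.93 in BALB/c and 5.237, 4.990, 5.002 and 4.974 in C57BL/6N. Its difference of 3.02 ± 0.0956 (SE, limma adjusted p = 1.11e-07) was larger than that of any member, and 19.2% of its 100-base stretches occur in another gene. Hist3h2bb-ps on chromosome 11 had 5.18, 5.38, 5.10 and 5.45 in BALB/c and 6.05, 5.86, 5.85 and 5.68 in C57BL/6N (-0.58 ± 0.114, adjusted p = 0.00979 from limma). Of the histone genes beside it, the nearer Hist3h2a had -0.04 and Hist3h2ba -0.59, and neither was called. Hist1h2aj, with 91.7% of such stretches in other genes, had -0.04 ± 0.0267 (adjusted p = 0.369 from limma).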
